A study of Mus musculus with 768 samples.

Results

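The genes described are 33 that serve glycolysis or respond to low oxygen, followed through the first week of mouse cochlear organoid culture. They were picked out by symbol from the name of each gene row, and all 33 were found among 52636 gene rows. The list itself was drawn up with earlier results of these data known. Aldoa had a second row with almost no reads, which was left out. All 33 were among the 17467 rows tested between days. By role they are 4 transporters of glucose or lactate, 9 genes of the steps from hexokinase to aldolase and triose phosphate isomerase, 6 of the steps from GAPDH to pyruvate kinase, 2 lactate dehydrogenases, 3 regulators of flux and 9 other targets of the hypoxia response.

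Cells came from the greater epithelial ridge (GER), a transient epithelium beside the hair cells of the young cochlea, of P2 mice that carried Fgfr3-CreERT2, Ai14-tdTomato and Sox2-GFP. They were enriched by flow cytometry and grown into organoids for 1, 3 or 7 days. Single cells were picked by hand from trypsin-treated organoids and sequenced with SmartSeq2, which covers whole transcripts and uses no molecular identifiers. By the labels, groups differed in day alone. All shared the strain and a DMEM/F12-based medium with N-2, B-27, ampicillin, the growth factors EGF, FGF2 and IGF1, CHIR99021 (which inhibits GSK3), the histone deacetylase inhibitor valproic acid, the vitamin C derivative 2-phospho-L-ascorbic acid and TGFß receptor inhibitor 616452. The labels name no change of oxygen level, and uncultured cells were not analysed here.

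Glycolysis splits glucose into pyruvate in the cytosol, and lactate dehydrogenase turns pyruvate into lactate, which monocarboxylate transporters carry out of the cell. In low oxygen the transcription factor HIF is no longer hydroxylated and degraded, and it raises the genes of glucose uptake, most glycolytic enzymes and a set of further targets that includes Bnip3, Car9, Vegfa and P4ha1. Many of these genes also answer to growth factors and Myc, so their transcripts do not read oxygen alone. The sensory epithelium of the cochlea holds no blood vessels and takes up oxygen and glucose by diffusion.

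The labels give each cell a day and a replicate number, taken here as the culture, and do not say whether the replicates came from separate animals. The p-values of the day comparisons therefore weigh differences against the spread between these cultures. Those of the cycling comparison weigh them against the spread of differences within cultures. There were 3 cultures of Day 1, 3 of Day 3 and 5 of Day 7, with 37 to 86 retained cells each. Reads summed per culture ranged from 26391585 to 72483924. Levels are CPM, the reads of a gene in such a sum per common number of reads, after TMM scaling. Calls are at an adjusted p (Benjamini-Hochberg, over all rows tested) under 0.05 in the quasi-likelihood test of edgeR. Epithelial markers were read in every culture (summed 3470 to 5471, 3563 to 5463 and 1850.0 to 2930.4 CPM on Days 1, 3 and 7), and 2 of 5 were called lower on Day 7 than on Day 1. GER and tectorial membrane markers summed to 9742 to 14107, 4138 to 8209 and 2254 to 4915 CPM, with 3 of 9 called lower. Neuron markers summed to 58.2 to 81.3, 32.5 to 51.5 and 6.85 to 24.5 CPM, with 3 of 4 tested called lower. Immune and erythroid markers stayed under 3.72 CPM in sum, Pecam1, Kdr, Tie1, Foxd3 and Hbb-bt were at 0, and mesenchyme and endothelial markers reached at most 45.9 and 24.9 CPM. Of 5 mesenchyme markers tested, 1 was called higher and 1 lower on Day 7 than on Day 1. Supporting cell markers summed to 379.6 to 869 CPM over all cultures, hair cell markers to 28.7 to 207.5 CPM and glia markers to 14.2 to 25.5 CPM. Of these, 2 of 8 supporting cell markers were called lower on Day 7 than on Day 1 and 2 of 8 than on Day 3, and 2 of 8 hair cell markers were called lower on Day 7 than on Day 3. The share of cycling cells was 15.3% to 23.7%, 55.6% to 66.7% and 25.3% to 87% per culture. These shifts ran alongside the day comparisons, and their part in the results was not tested.

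Between Day 1 and Day 7 the transcripts of the glucose carrier Slc2a1 and the collagen hydroxylase P4ha1 fell, while that of the glycolytic enzyme Pgk1 rose. These were 3 of 33 genes (1 higher and 2 lower, 9.09%), beside 7.13% of all genes tested, so the share was near the background. On Day 3 against Day 1, 0 of 33 were called, beside 0.0115% of all genes (2 of 17467). At an unadjusted p under 0.05 there were 5 (15.2%, beside 9.26% of all genes), and DESeq2 called 1, Slc16a3, beside 1.53% of all genes. On Day 7 against Day 3, 0 of 33 were called, beside 0.968% of all genes. There, 6 had an unadjusted p under 0.05 (18.2%, beside 11.8% of all genes), and DESeq2 called 2, Pfkp and Slc2a1, beside 3.66% of all genes. The median log2 fold change of the 33 genes on Day 7 against Day 1 was 0.035, beside 0.003 over all genes tested. For Day 3 against Day 1 it was 0.0047, beside 0.018, and from Day 3 to Day 7 -0.019, beside 0.011. On Day 7 against Day 1, 17 of the 33 had a fold change above 0 and 16 below it, so the group did not move one way.

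**Figure D1:**
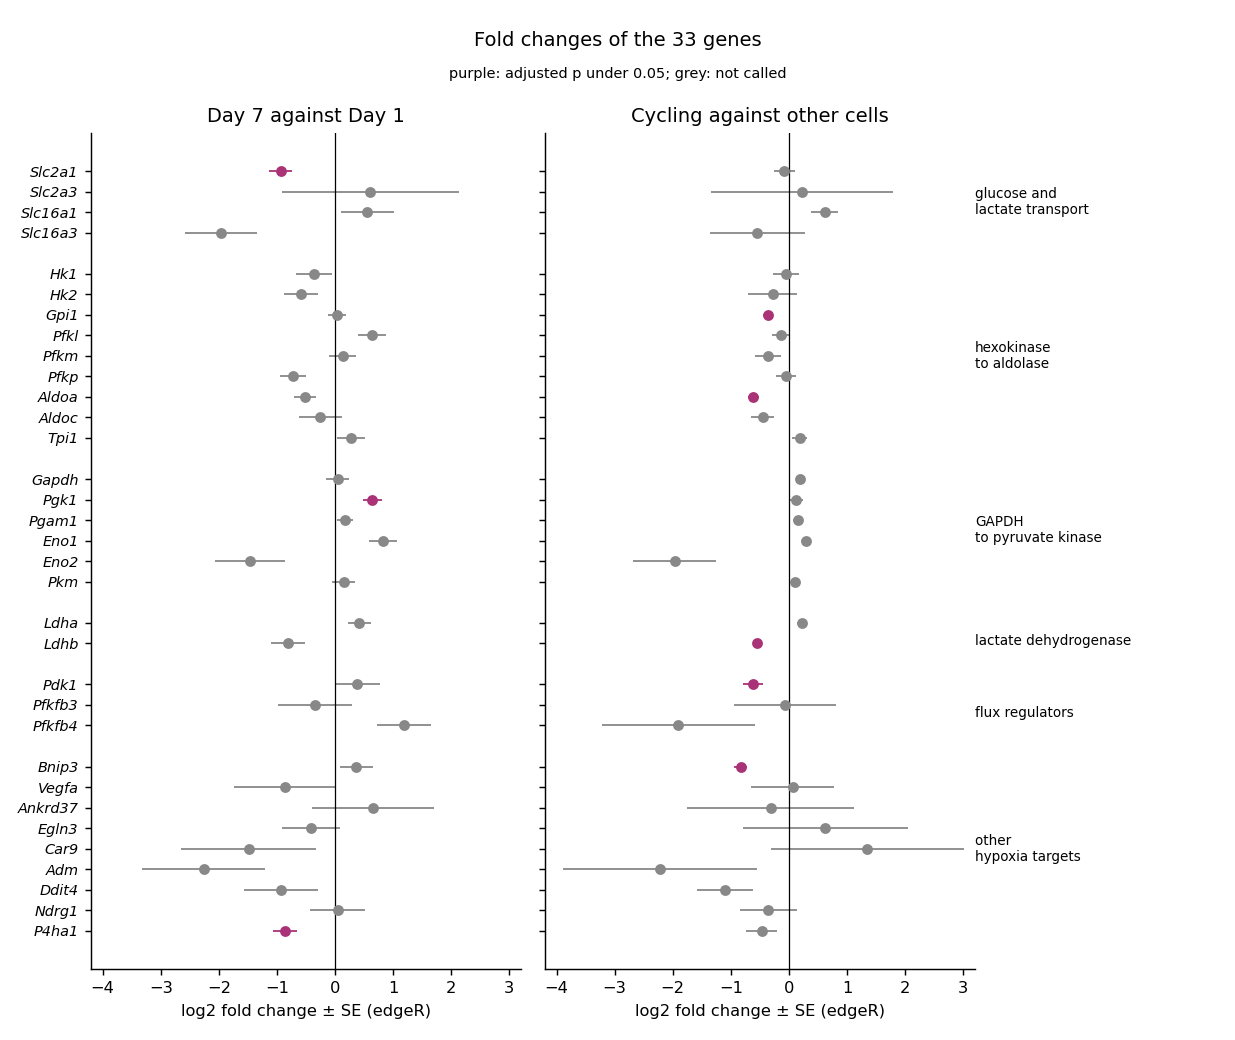
Fitted log2 fold changes with their SE (edgeR) of the 33 genes, grouped by role on the vertical axis, for Day 7 against Day 1 on the left and for cycling against other cells of the same cultures on the right. Purple points passed an adjusted p of 0.05: on the left Slc2a1 and P4ha1 below 0 and Pgk1 above it, on the right Gpi1, Aldoa, Ldhb, Pdk1 and Bnip3, all below 0.

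Overlap between cultures was counted as well. In 9 of 33 genes (27.3%) the CPM of the Day 1 and Day 3 cultures did not overlap, beside 18% of all genes. For Day 1 and Day 7 it was 7 of 33 (21.2%), beside 17.8% of all genes, and for Day 3 and Day 7 4 of 33 (12.1%), beside 8.14%.

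Slc2a1 (GLUT1; ENSMUSG00000028645.11, chromosome 4, 119108711 to 119137983, plus strand), the main glucose carrier of most epithelia, fell. Its level was 115.7, 143.4 and 111.6 CPM in the Day 1 cultures, 140.6, 96.2 and 94.6 CPM on Day 3 and 74.8, 70.5, 73.5, 52.7 and 51.8 CPM on Day 7. Every Day 7 culture lay below every culture of Days 1 and 3, while Days 1 and 3 overlapped. The means were 123.6 ± 17.3 CPM on Day 1 (SD, n = 3), 110.5 ± 26.1 CPM on Day 3 (SD, n = 3) and 64.7 ± 11.4 CPM on Day 7 (SD, n = 5). Day 7 was lower than Day 1 (log2 fold change -0.94 with SE 0.20, adjusted p = 0.0175 in edgeR). Against Day 3 the difference did not pass (log2 fold change -0.77, adjusted p = 0.103). Without Day 1 culture 2 the adjusted p of Day 7 against Day 1 was 0.0793. The log2 fold change was -0.81 (adjusted p = 0.276) within the first of 2 deposited files (1 culture of Day 1, 4 of Day 7) and -1.30 (adjusted p = 0.114) within the second (2 cultures of Day 1, 1 of Day 7). It was -1.17 (adjusted p = 0.0628) in cells with a read of fewer than 3 of 6 cycling markers. The direction was the same in each, with fewer cultures or cells and no call.

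The second glucose carrier on the list, Slc2a3 (GLUT3), was barely read, at a mean of 0.814, 1.96 and 1.23 CPM. Of the reads of both carriers per kilobase of exon, Slc2a1 held 99.7% ± 0.464 on Day 1 and 99% ± 1 on Day 7. The monocarboxylate transporter Slc16a3 (MCT4), known as a lactate exporter, is named here after its values were seen. It stood at 22.9, 27.1 and 19.9 CPM on Day 1, 4.35, 2.48 and 6.1 CPM on Day 3 and 6.41, 15.5, 3.52, 3.36 and 1.27 CPM on Day 7, so that all 8 later cultures lay below the 3 of Day 1. Neither difference passed (Day 3 against Day 1: log2 fold change -2.44, adjusted p = 0.32; Day 7 against Day 1: log2 fold change -1.96, adjusted p = 0.0744). Slc16a1 (MCT1), which moves lactate either way, was at 36.7 ± 16.4 CPM on Day 1 (SD, n = 3), 54.2 ± 23 CPM on Day 3 (SD, n = 3) and 53.8 ± 28.3 CPM on Day 7 (SD, n = 5), with overlapping days. Of both transporters' reads per kilobase of exon, Slc16a3 therefore held 36.3% ± 9.75 on Day 1 (SD, n = 3), 6.44% ± 2.29 on Day 3 (SD, n = 3) and 8.48% ± 5.97 on Day 7 (SD, n = 5). The share ranged over 25.6% to 44.6% in the Day 1 cultures and 3.51% to 16.5% in those of Day 7, a difference that was not tested.

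**Figure D2:**
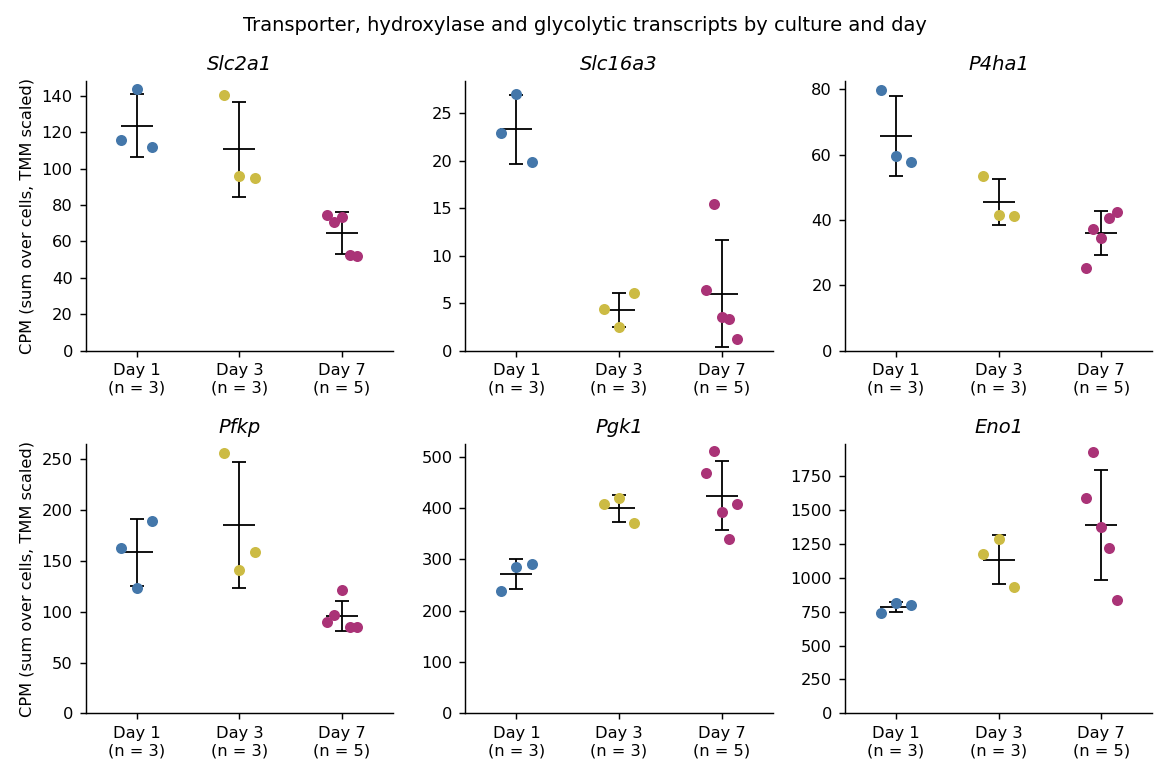
CPM of 6 genes (vertical axes from 0), 1 point per culture with the mean and SD, on Day 1 (n = 3), Day 3 (n = 3) and Day 7 (n = 5). Slc2a1, Slc16a3 and P4ha1 lie lower in the Day 7 cultures than in those of Day 1, and Pgk1 and Eno1 lie higher, with Day 7 culture 5 lowest for Eno1 at 838 CPM.

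HIF binds DNA around the letters ACGTG or GCGTG, and the promoters of the genes called between days are shown for that reason, with Bnip3, a gene called in the comparison of cycling cells. Each line holds the 250 bases before the RefSeq start, 5′ to 3′ on the strand of the gene, with every match on either strand in capitals (on the other strand the letters read CACGT or CACGC).
Slc2a1 (GRCm38.p6, chr4:119108495-119108744, plus strand): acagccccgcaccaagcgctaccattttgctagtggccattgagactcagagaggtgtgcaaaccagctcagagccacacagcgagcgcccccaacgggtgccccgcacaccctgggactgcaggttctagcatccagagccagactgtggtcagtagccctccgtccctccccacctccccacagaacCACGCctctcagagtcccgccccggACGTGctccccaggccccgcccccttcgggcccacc
Pgk1 (GRCm38.p6, chrX:106186850-106187099, plus strand): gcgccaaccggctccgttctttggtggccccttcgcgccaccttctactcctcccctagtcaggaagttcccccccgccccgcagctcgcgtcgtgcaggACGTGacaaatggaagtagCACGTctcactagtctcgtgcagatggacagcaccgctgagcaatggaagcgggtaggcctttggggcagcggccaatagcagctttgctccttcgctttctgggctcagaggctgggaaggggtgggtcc
P4ha1 (GRCm38.p6, chr10:59323046-59323295, plus strand): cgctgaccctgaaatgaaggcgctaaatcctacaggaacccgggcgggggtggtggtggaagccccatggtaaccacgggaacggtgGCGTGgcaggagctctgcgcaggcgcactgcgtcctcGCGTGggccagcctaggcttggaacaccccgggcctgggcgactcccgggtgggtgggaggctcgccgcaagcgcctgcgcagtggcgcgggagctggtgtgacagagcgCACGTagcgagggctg
Bnip3 (GRCm38.p6, chr7:138909507-138909756, minus strand): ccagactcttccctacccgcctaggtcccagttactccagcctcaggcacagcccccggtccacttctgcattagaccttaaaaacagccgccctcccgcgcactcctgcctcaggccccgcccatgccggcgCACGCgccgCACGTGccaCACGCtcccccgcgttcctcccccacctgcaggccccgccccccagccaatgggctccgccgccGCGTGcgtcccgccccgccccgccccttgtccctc
Slc2a1 held 2 matches, whose first letters lay 61 and 36 bases before the start. Pgk1 also held 2, both in the upstream part of the window, and P4ha1 held 3, the nearest 16 bases before the start. Bnip3 held 5, the nearest at 35 bases, of which a pair is the palindrome CACGTG, read once per strand. The letters thus stood before genes that fell (Slc2a1, P4ha1) and before one that rose (Pgk1). In the window from 250 bases before to 50 after the start, 36 of the 45 RefSeq promoters of 31 matched members (80%) held at least 1 match, beside 43.8% of all 32851 promoters. At least 2 matches stood in 57.8% of members' promoters and 20.6% of all. All promoters were counted without matching them to the members in base composition or level, and the members include known targets of HIF. The difference in shares was therefore not tested as an enrichment. Eno2, Gpi1 and Tpi1 had none in this window. A match of so short a word is a description of the letters, not a binding site.

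In the first steps of glycolysis no gene was called between days. Hexokinases trap glucose in the cell as its phosphate: Hk1 was at 70.7 ± 10.8 CPM on Day 1 (SD, n = 3), 56.8 ± 22 CPM on Day 3 (SD, n = 3) and 54.8 ± 19.3 CPM on Day 7 (SD, n = 5), and Hk2 at 36.3, 34.2 and 24.1 CPM. Gpi1 (phosphoglucose isomerase; ENSMUSG00000036427.5, chromosome 7, 34201330 to 34230336, minus strand) varied little, with 225.2, 275.8 and 260.02 CPM on Day 1, 194.9, 223.2 and 234.7 CPM on Day 3 and 285.9, 293.6, 235.1, 224.8 and 260.1 CPM on Day 7. Its days overlapped (Day 7 against Day 1: log2 fold change 0.035, adjusted p = 0.926).

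Phosphofructokinase, the committed step, is made of subunits from 3 genes. Pfkp, the platelet-type subunit, is named after its values were seen: 162.6, 123.6 and 189.3 CPM on Day 1, 256.5, 141.2 and 158.3 CPM on Day 3 and 89.9, 97.3, 121.1, 85.2 and 84.8 CPM on Day 7. All Day 7 cultures lay below the others, and the differences missed the threshold (Day 7 against Day 1: log2 fold change -0.73, adjusted p = 0.0663; against Day 3: log2 fold change -0.95, adjusted p = 0.0691). Pfkl, the liver-type subunit, averaged 70.1, 73 and 108.99 CPM (Day 7 against Day 1: log2 fold change 0.64, adjusted p = 0.13), and Pfkm, the muscle-type subunit, 32.4, 31 and 35.5 CPM. Per kilobase of exon, Pfkp held 36.9% ± 6.67 on Day 1 (SD, n = 3), 39.9% ± 6.19 on Day 3 (SD, n = 3) and 21.2% ± 4.44 on Day 7 (SD, n = 5) of the reads of the 3 genes. Pfkl held 33% ± 5.05 on Day 1 (SD, n = 3), 32.4% ± 2.64 on Day 3 (SD, n = 3) and 47% ± 9.07 on Day 7 (SD, n = 5). By the length of the longest transcript Pfkp held 37.7% ± 6.62 on Day 1 and 21.4% ± 4.64 on Day 7, and Pfkl 39.1% ± 5.52 and 54.5% ± 8.78. With either length the mean share of Pfkp was lower and that of Pfkl higher on Day 7 than on Day 1, while which of them ranked first on Day 1 depends on the length. These shares were not tested.

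Aldoa (fructose-bisphosphate aldolase A; ENSMUSG00000030695.15) was at 788, 1099 and 859 CPM on Day 1, 757.4, 785 and 684.2 CPM on Day 3 and 700.3, 723.3, 548.7, 462.9 and 769.3 CPM on Day 7. Each Day 7 culture was below each Day 1 culture, and the difference did not pass (log2 fold change -0.51 with SE 0.19, adjusted p = 0.114 in edgeR). Aldoc, the brain-type aldolase, was at 130.9 ± 56.8 CPM on Day 1 (SD, n = 3), 53.6 ± 25.4 CPM on Day 3 (SD, n = 3) and 109.9 ± 28.6 CPM on Day 7 (SD, n = 5). Aldoa held 89% ± 2.84 on Day 1 (SD, n = 3), 93.9% ± 2.88 on Day 3 (SD, n = 3) and 86.7% ± 2.66 on Day 7 (SD, n = 5) of aldolase reads per kilobase of exon. Tpi1, which interconverts the triose phosphates, averaged 296.5, 327.1 and 356.8 CPM.

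Among the steps that yield ATP and NADH, Pgk1 (phosphoglycerate kinase, the first ATP-forming step; ENSMUSG00000062070.12, chromosome X, 106187100 to 106203699, plus strand) rose. It stood at 238.1, 285.7 and 291.8 CPM on Day 1, 407.6, 420.3 and 370.01 CPM on Day 3 and 468.9, 511.7, 391.6, 339.6 and 407.3 CPM on Day 7. Every Day 3 and Day 7 culture lay above every Day 1 culture. The means were 271.9 ± 29.4 CPM on Day 1 (SD, n = 3), 399.3 ± 26.2 CPM on Day 3 (SD, n = 3) and 423.8 ± 67.4 CPM on Day 7 (SD, n = 5). Day 7 exceeded Day 1 (log2 fold change 0.64 with SE 0.17, adjusted p = 0.037 in edgeR), and Day 3 against Day 1 did not pass (log2 fold change 0.55, adjusted p = 0.366). Leaving out any 1 of 8 of the 11 cultures ended the call: Day 1 cultures 1, 2 and 3, Day 3 cultures 1 and 3, and Day 7 cultures 1, 2 and 3 (adjusted p from 0.0574 to 0.191). So did no filter on low counts (adjusted p = 0.0889) and a fit of only the 2 days compared (adjusted p = 0.0701). In cells below 3 cycling markers the log2 fold change was 0.53 (adjusted p = 0.382), and within the 2 files it was 0.80 (adjusted p = 0.281) and 0.50 (adjusted p = 0.39).

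Eno1 (enolase 1; ENSMUSG00000063524.13, chromosome 4, 150236721 to 150248879, plus strand), named after its values were seen, followed the same order at a higher level. It was at 737.9, 812 and 800.5 CPM on Day 1, 1177, 1288 and 934 CPM on Day 3 and 1584, 1926, 1372, 1219.7 and 838 CPM on Day 7. All later cultures lay above Day 1, and the spread within Day 7 was wide. Day 7 against Day 1 came to log2 fold change 0.82 with SE 0.23, adjusted p = 0.0516 in edgeR. Eno2, the neuronal enolase, was low, at 7.11 ± 3.62 CPM on Day 1 (SD, n = 3), 4.77 ± 1.48 CPM on Day 3 (SD, n = 3) and 2.57 ± 1.69 CPM on Day 7 (SD, n = 5), so that Eno1 held 99% ± 0.486 and 99.8% ± 0.171 of enolase reads per kilobase of exon on Days 1 and 7.

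The Eno1 count depends on how reads are shared with near-identical copies elsewhere in the genome. Gm4735, a processed pseudogene (chromosome 2, 80837141 to 80838442, plus strand), matches the Eno1 coding sequence with 5 differences in 1302 bases. The 90 bases that hold the most differences are shown, as coding bases 1149 to 1238 of Eno1 and as chr2:80838289-80838378 of Gm4735 (GRCm38), with the 2 differing bases in capitals.
Eno1: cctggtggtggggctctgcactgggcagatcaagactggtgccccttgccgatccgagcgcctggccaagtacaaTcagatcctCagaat
Gm4735: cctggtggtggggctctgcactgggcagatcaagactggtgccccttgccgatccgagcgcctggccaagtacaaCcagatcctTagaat
The deposited table gave 292407 reads to Gm4735 and 618006 to Eno1. A further 207212 reads stood on Eno1b, a copy annotated as protein-coding (99.5% identity over 1736 bases). Over 5 copies, 44.7% of the reads of Eno1 and its copies stood on a copy, within 42.8% to 46.4% in every culture. With the copies' reads added, the log2 fold change of Eno1 on Day 7 against Day 1 was 0.87 (SE 0.23, edgeR adjusted p = 0.0389), which passed. For Eno1 itself 7 of 25 alternatives gave a call. The log2 fold change was 1.00 (adjusted p = 0.214) within the first file and 0.057 (adjusted p = 0.97) within the second, and 0.66 (adjusted p = 0.142) with the file as a term. Without Day 7 culture 5, the only Day 7 culture of the second file, the adjusted p was 0.0112.

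Gapdh, often used as a loading control, was at 893 ± 182.8 CPM on Day 1 (SD, n = 3), 932 ± 48.2 CPM on Day 3 (SD, n = 3) and 919.9 ± 215.6 CPM on Day 7 (SD, n = 5) (Day 7 against Day 1: log2 fold change 0.043, adjusted p = 0.93). Of its reads and those of 180 copies, 21.4% stood on a copy, 119457 of them on Gm13394 (99.9% identity). Ldhb, Pgk1 and Pgam1 had 2.95%, 2.29% and 1.62% of reads on copies, and the other members at most 0.377%. Pgam1 (phosphoglycerate mutase) averaged 458.9, 528.01 and 514.3 CPM. Pkm (pyruvate kinase, the second ATP-forming step) averaged 1240.5, 1245 and 1375 CPM. Per kilobase of exon the Day 7 levels were 275.02 ± 65.9 CPM for Pkm, 259.5 ± 17.5 for Pgam1, 258.1 ± 75.5 for Eno1, 226.4 ± 53.9 for Ldha, 222.6 ± 52.2 for Gapdh and 220.2 ± 44.5 for Aldoa (SD, n = 5). Neighbours in this order lay within 1 SD of each other. By the longest transcript the means were 684.8 for Eno1, 565.5 for Pkm and 289.8 for Pgam1, so both level and order depend on the length used. These levels leave out the reads on copies (44.7% of reads for Eno1 with its copies, 21.4% for Gapdh). The order with those reads added was not worked out.

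Lactate dehydrogenase is a tetramer of A and B subunits, of which A is known to favour lactate formation. Ldha was at 554.4, 596.1 and 532.99 CPM on Day 1, 779, 711.4 and 684.7 CPM on Day 3 and 887, 958, 736.2, 648.7 and 516.1 CPM on Day 7. All Day 3 cultures lay above those of Day 1, while Day 7 culture 5 lay below them (Day 7 against Day 1: log2 fold change 0.42, adjusted p = 0.213). Ldhb (ENSMUSG00000030246.11, chromosome 6, 142490249 to 142507957, minus strand) was at 388.004, 682.4 and 494.6 CPM on Day 1, 247.4, 555.5 and 366.5 CPM on Day 3 and 262.4, 287.7, 203.04, 286.9 and 445.2 CPM on Day 7, with overlapping days (Day 7 against Day 1: log2 fold change -0.81, adjusted p = 0.109). Per kilobase of exon, Ldha held 34.5% ± 5.58 on Day 1 (SD, n = 3), 48.2% ± 11.1 on Day 3 (SD, n = 3) and 54.7% ± 11.6 on Day 7 (SD, n = 5) of the reads of both. It was 35.5% in Day 7 culture 5 and 51.7% to 63.2% in the other 4. By the length of the longest transcript instead, the means were 44.3% ± 6.07, 58.2% ± 10.7 and 64.2% ± 11.3, so the level of the share depends on the length used. Day 7 culture 5 also had the lowest share of cycling cells of that day (25.3%) and the most mitochondrial reads (6.76%, as the median of its cells, against 2.72% to 4.51% in the other 10 cultures), and their part in its low Eno1 and Ldha was not tested.

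Of the flux regulators none was called between days. Pdk1 (pyruvate dehydrogenase kinase, which closes the entry of pyruvate into the mitochondrion; ENSMUSG00000006494.11, chromosome 2, 71873224 to 71903858, plus strand) was at 18.4, 22.2 and 25.1 CPM on Day 1, 29.1, 23.2 and 20.7 CPM on Day 3 and 42.3, 47.4, 14, 18.2 and 20.7 CPM on Day 7. Day 7 cultures 1 and 2 were high and the other 3 lay within or below the Day 1 range (Day 7 against Day 1: log2 fold change 0.38, adjusted p = 0.608). Pfkfb3 and Pfkfb4 make fructose 2,6-bisphosphate, an activator of phosphofructokinase, and were low: Pfkfb3 at 5.56, 5.7 and 4.37 CPM and Pfkfb4 at 3.89, 3.32 and 8.86 CPM (Pfkfb4 on Day 7 against Day 1: log2 fold change 1.18, adjusted p = 0.141).

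Among the other hypoxia targets, P4ha1 (the catalytic subunit of a collagen prolyl 4-hydroxylase; ENSMUSG00000019916.14, chromosome 10, 59323296 to 59373304, plus strand) fell. It was at 79.8, 59.5 and 57.8 CPM on Day 1, 53.5, 41.6 and 41.4 CPM on Day 3 and 25.3, 37.3, 34.5, 40.5 and 42.5 CPM on Day 7. The Day 1 cultures lay above all later ones, and Days 3 and 7 overlapped. The means were 65.7 ± 12.3 CPM on Day 1 (SD, n = 3), 45.5 ± 6.97 CPM on Day 3 (SD, n = 3) and 36 ± 6.73 CPM on Day 7 (SD, n = 5), and Day 7 was lower than Day 1 (log2 fold change -0.87 with SE 0.21, adjusted p = 0.0291 in edgeR). The adjusted p rose to 0.11, 0.0667 and 0.0587 without Day 1 culture 1, 2 or 3, and to 0.0651 with limma on the mean CPM per cell. In cells below 3 cycling markers the log2 fold change was -1.04 (adjusted p = 0.104), and within the 2 files it was -1.26 (adjusted p = 0.197) and -0.46 (adjusted p = 0.539).

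Bnip3 (a mitochondrial protein of mitophagy; ENSMUSG00000078566.8, chromosome 7, 138890836 to 138909519, minus strand) was at 62.9, 103.2 and 75.7 CPM on Day 1, 67.9, 68.7 and 71.2 CPM on Day 3 and 117.4, 123.2, 55, 78.1 and 143.9 CPM on Day 7, with Day 7 spanning both other days (Day 7 against Day 1: log2 fold change 0.36, adjusted p = 0.49). Ndrg1, a stress-responsive gene, was highest on Day 3 by its mean, at 14.8 ± 3.36 CPM on Day 1 (SD, n = 3), 37.3 ± 12.4 CPM on Day 3 (SD, n = 3) and 15.3 ± 10 CPM on Day 7 (SD, n = 5) (Day 3 against Day 1: log2 fold change 1.33, adjusted p = 0.486). All 3 Day 3 cultures exceeded all of Day 1, and 1 Day 7 culture reached the Day 3 range. Car9 (a carbonic anhydrase of the cell surface, among the most oxygen-dependent transcripts) was at 6.77, 11.8 and 6.36 CPM on Day 1, 0.738, 4.06 and 0.932 CPM on Day 3 and 12, 1.68, 0.668, 0.456 and 0.0668 CPM on Day 7. It was low on Day 3 and in 4 of 5 Day 7 cultures, while culture 1 of Day 7 reached the Day 1 level. No difference between days passed for Car9 (adjusted p from 0.485 to 0.932). Vegfa (the vascular growth factor), Adm (adrenomedullin), Egln3 (a HIF prolyl hydroxylase), Ankrd37 and Ddit4 (an mTORC1 inhibitor) stayed at 0.683 to 5.97 CPM as day means, and 0 of these 5 were called.

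The share of cells with a read differed widely between the genes. After each cell was thinned to 200000 reads (which leaves out cells below that depth), Gpi1, Aldoa, Tpi1, Gapdh, Pgk1, Pgam1, Eno1, Pkm, Ldha and Ldhb were each read in at least 80% of all cells. Their lowest mean over the cultures of a day was 94.5%. Slc2a1 was read in 80.8% ± 9.77, 81.7% ± 9.4 and 62.2% ± 12 of cells on Days 1, 3 and 7 (mean of cultures ± SD, n = 3, 3 and 5). P4ha1 was read in 68.3% ± 4.46, 53% ± 2.82 and 40.4% ± 2.76 and Slc16a3 in 44.6% ± 7.18, 11.8% ± 5.41 and 14.5% ± 11. The Day 1 and Day 7 cultures did not overlap in these shares for P4ha1 and Slc16a3, and overlapped for Slc2a1. Other members also did not overlap, such as Car9 (15.8% to 23.5% on Day 1, 0% to 15.4% on Day 7) and Eno2 (15.3% to 23.7% and 2.56% to 9.33%). How often this held over all genes was not worked out for shares of cells. Bnip3 was read in 72.7% ± 8.65, 70.4% ± 3.59 and 80.5% ± 8.35.

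Hypoxia targets of low level were read in a minority of cells. Car9 was read in 35, 7 and 9 cells of Days 1, 3 and 7, or 18.9% ± 4.1, 3.39% ± 3.63 and 4.16% ± 6.35 as means of cultures. Egln3 was read in 9.54% ± 5.45, 12.4% ± 2.89 and 8.76% ± 4.09, Vegfa in 10.7% ± 2.62, 7.25% ± 5.28 and 7.13% ± 5.69 and Adm in 4.36% ± 2.13, 10.9% ± 1.21 and 2.99% ± 2.13. Ankrd37 and Slc2a3 stayed under 6% of cells as day means. At this depth a cell without a read cannot be told from a cell that lacks the transcript.

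**Figure D3:**
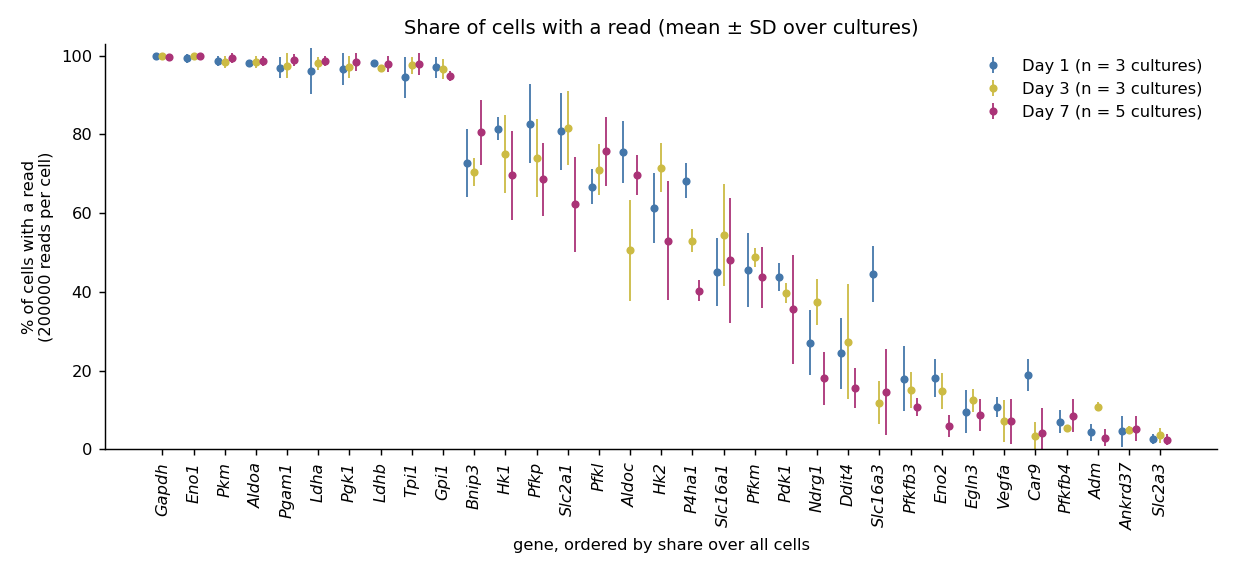
Percent of cells with at least 1 read after thinning to 200000 reads (mean of cultures ± SD) for the 33 genes, ordered by their share over all cells, on Day 1 (n = 3), Day 3 (n = 3) and Day 7 (n = 5). The 10 core enzymes sit near 100% on every day, Slc2a1, P4ha1 and Slc16a3 lie lower on Day 7 than on Day 1, and most other hypoxia targets lie under 40%.

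The levels of the widely read genes were compared across the cells of each culture. Over the 45 pairs of the 10 widely read genes, Spearman's rho across cells, averaged over the 11 cultures, had a median of 0.291 and ranged from 0.0666 to 0.514. All 45 were above 0, and equally widely read genes of other pathways were not compared. The highest value was that of Pkm with Ldha (0.514, from 0.211 to 0.752 per culture), and Eno1 with Pkm reached 0.510. Ldhb stood apart, with 0.089 beside Ldha, its partner subunit, and Gpi1 with Eno1 was the lowest pair. The genes of a cell share its library and its depth, which was made equal by thinning, and the values are a description.

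**Figure D4:**
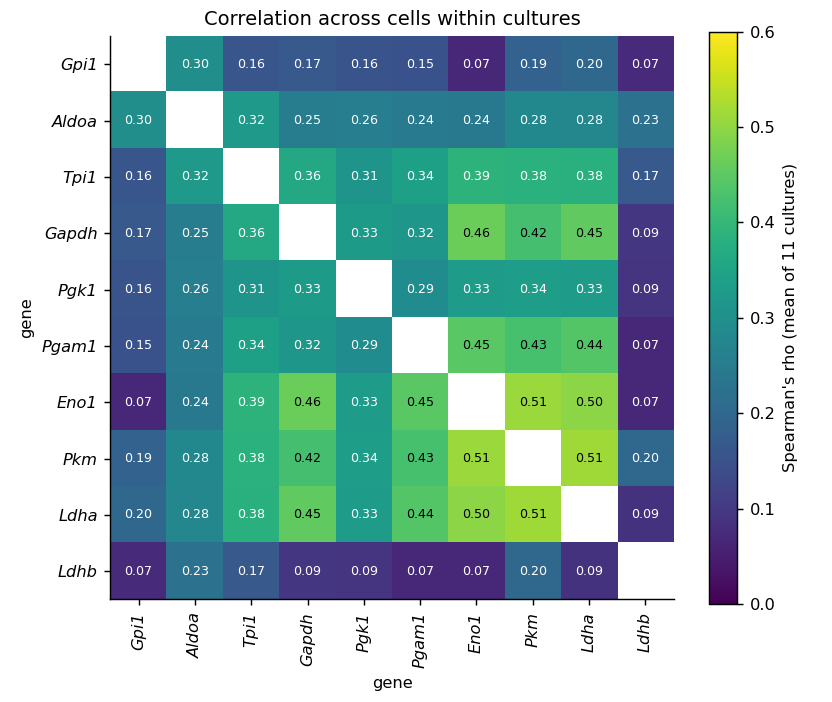
Spearman's rho across cells at equal depth, as the mean of 11 cultures, between the 10 members read in at least 80% of cells, on both axes in the order of the pathway. Eno1, Pkm, Ldha, Gapdh and Pgam1 hold the highest values, up to 0.51, and the pairs of Ldhb and the pair of Gpi1 with Eno1 are among the lowest.

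Organoid cells multiply in this medium, and proliferating cells are known to use glycolysis, so cycling cells were compared with the other cells of the same cultures on Days 3 and 7. A cell was called cycling with a read of at least 3 of 6 cycling markers at 200000 reads. Aldoa, Ldhb, Bnip3, Gpi1 and Pdk1 were lower in cycling cells. These were 5 of 33 genes (all lower, 15.2%), beside 11.1% of the 13239 genes tested, so the share was not far above the background. Split by direction, 4.42% of all genes were called lower and 6.69% higher, while 0 members were called higher. A difference in direction between the members and all genes was not tested. At an unadjusted p under 0.05 there were 12 (36.4%, beside 23.7% of all genes). Of the 33, 12 had a fold change above 0 and 21 below it, with a median of -0.14, beside 0.034 over all genes.

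Aldoa was at 412.7 to 688.3 CPM with a median of 559.7 in the cycling cells of the 8 cultures and at 599.2 to 982 CPM with a median of 862 in the others. It was lower in cycling cells in 8 of 8 cultures (log2 fold change -0.61 with SE 0.089, adjusted p = 0.00122 in edgeR). Ldhb was at 192.7 to 493.2 CPM with a median of 242.2 in cycling cells and at 266.4 to 641.1 CPM with a median of 364.4 in the others, and was also lower in 8 of 8 (log2 fold change -0.55 with SE 0.074, adjusted p = 0.000769 in edgeR). Bnip3 had the largest difference of the 5, at 46 to 97.6 CPM with a median of 64.1 against 82.9 to 166.3 CPM with a median of 105.9, lower in 8 of 8 (log2 fold change -0.83 with SE 0.11, adjusted p = 0.000825 in edgeR). These 3 calls remained when any 1 of the 8 cultures was left out.

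Gpi1 was lower in 7 of 8 cultures, at 177.005 to 257.4 CPM with a median of 215.3 against 217.3 to 348.2 CPM with a median of 272.5 (log2 fold change -0.36 with SE 0.086, adjusted p = 0.0207 in edgeR). Leaving out Day 3 culture 1 or 2, or Day 7 culture 2 or 4, ended the call (adjusted p from 0.0568 to 0.071). Pdk1 was lower in 8 of 8 cultures, at 12.9 to 36.6 CPM with a median of 18.9 against 21 to 63.1 CPM with a median of 27 (log2 fold change -0.62 with SE 0.17, adjusted p = 0.0371 in edgeR). Leaving out any 1 of the 8 cultures ended the call (adjusted p from 0.0573 to 0.0928).

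Of the 6 genes from GAPDH to pyruvate kinase none was called, and their signs differed. Eno1 was higher in cycling cells in 8 of 8 cultures (log2 fold change 0.29, adjusted p = 0.0533), Gapdh in 7 of 8 (log2 fold change 0.19, adjusted p = 0.0898), Pgam1 in 6 of 8 and Pgk1 and Pkm in 5 of 8. Eno2, at low counts, was lower in 7 of 8 (log2 fold change -1.97, adjusted p = 0.118). Ldha was higher in 8 of 8 without passing (log2 fold change 0.22, adjusted p = 0.122). Ldha and Ldhb, subunits of 1 enzyme, thus had fold changes of opposite sign. Slc2a1 and P4ha1, the genes that fell between Day 1 and Day 7, did not pass between classes (log2 fold change -0.077, adjusted p = 0.87 and log2 fold change -0.47, adjusted p = 0.334).

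**Figure D5:**
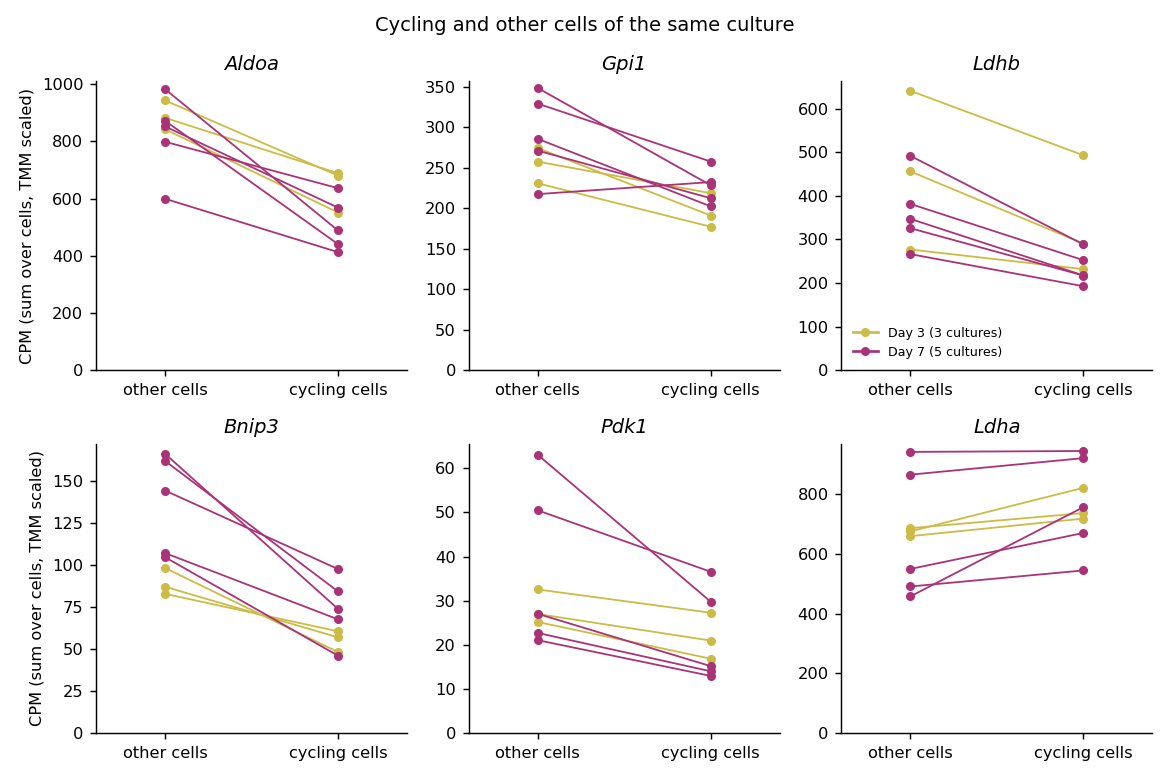
CPM in cycling and in other cells of the same culture, 1 line per culture (3 of Day 3 and 5 of Day 7), for Aldoa, Ldhb, Bnip3, Gpi1, Pdk1 and Ldha. The lines fall toward cycling cells in 8 of 8 cultures for Aldoa, Ldhb, Bnip3 and Pdk1 and in 7 of 8 for Gpi1, and rise in 8 of 8 for Ldha, which was not called.

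Within Day 3 alone 0 of 33 genes were called (Aldoa -0.45, adjusted p = 0.0662; Ldhb -0.40, adjusted p = 0.144; Bnip3 -0.67, adjusted p = 0.12), and within Day 7 alone Aldoa, Ldhb and Bnip3 were. A test of the difference between the days' effects, added after the data were seen, called 0 of 33 (edgeR, 1 with an unadjusted p under 0.05). That gene was Slc2a1, lower in cycling cells in 3 of 3 Day 3 cultures and 2 of 5 Day 7 cultures (interaction 0.86, SE 0.29, adjusted p = 1). The classes also differed in other measures. Cycling cells had a median of 825150 reads, 7105 genes and 4.07% mitochondrial reads, beside 863825, 6085.5 and 4.75% in the others, and 88 cells lay at 2 or 3 markers. Epithelial markers were called lower in cycling cells for 3 of 5, GER and tectorial membrane markers for 5 of 8 tested and immediate early genes for 5 of 10. Their part in the result was not tested.

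Further genes of the pathways, listed with earlier results of these data known, are given by their counts on Day 7 against Day 1, to be read beside 3.56% of all genes called higher and 3.57% called lower. Of 9 genes of HIF and oxygen sensing, 0 rose and 1 fell: Hif3a, an alpha subunit, at 10.6 ± 6.11 CPM on Day 1 (SD, n = 3) and 2.34 ± 1.39 CPM on Day 7 (SD, n = 5) (log2 fold change -2.18 with SE 0.61, adjusted p = 0.0489 in edgeR). Hif1a, the best known alpha subunit, did not pass (log2 fold change -0.62, adjusted p = 0.0877), nor did Vhl, which marks it for degradation (log2 fold change 0.49, adjusted p = 0.122).

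Of 32 further hypoxia targets, 0 rose and 5 fell. P4ha2 is the sister subunit of P4ha1 and was at 45.1 ± 11.8 CPM on Day 1 (SD, n = 3) and 11.9 ± 2.02 CPM on Day 7 (SD, n = 5) (log2 fold change -1.93 with SE 0.27, adjusted p = 0.00265 in edgeR). Plod1, which hydroxylates collagen lysines, was at 162.3 ± 24.7 CPM on Day 1 (SD, n = 3) and 66.3 ± 16.4 CPM on Day 7 (SD, n = 5) (log2 fold change -1.29 with SE 0.21, adjusted p = 0.00504 in edgeR). Plod1 was also lower in cycling than in other cells (-1.09, adjusted p = 0.000211 in edgeR). Of 28 further hypoxia targets tested between these classes, 3 were called lower and 1 higher in cycling cells, beside 4.42% and 6.69% of all genes. Ero1l and Cited2, chosen after their values were seen, were also called (log2 fold change -1.56, adjusted p = 0.0289 and log2 fold change -0.79, adjusted p = 0.0276).

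Of 17 tested genes of a further list of 26 on glycolysis and glucose entry, 1 rose and 0 fell. The gene that rose was Bpgm, which turns 1,3-bisphosphoglycerate, the substrate of Pgk1, into the 2,3 form. It was at 47.6 ± 11.4 CPM on Day 1 (SD, n = 3) and 103.1 ± 13 CPM on Day 7 (SD, n = 5) (log2 fold change 1.12 with SE 0.20, adjusted p = 0.00744 in edgeR). Bsg (basigin, the partner of MCT1 and MCT4) did not pass between days (log2 fold change -0.54, adjusted p = 0.109) and was lower in cycling cells (-0.68, adjusted p = 0.000121). Of 16 genes of this list tested between the classes, 3 were called lower and 0 higher in cycling cells. Pgk2 and Pklr, isoenzymes known from testis and from liver and red cells, had no read.

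Beyond glycolysis, 0 of 13 genes of pyruvate entry into mitochondria were called (11 above 0). Of 7 pentose phosphate genes 1 rose, Tkt, a transketolase (log2 fold change 0.60, adjusted p = 0.0397). Of 16 genes of the tricarboxylic acid cycle 2 rose and 0 fell, with 15 of 16 above 0 and a median of 0.36. Sdha, a subunit of succinate dehydrogenase, was among those that rose (log2 fold change 0.69, adjusted p = 0.041). In cycling against other cells, 2 of the same 16 genes were called higher and 0 lower. Of 10 genes of the integrated stress response, which respond to amino acid and oxygen stress, 2 rose: Chac1 (log2 fold change 2.92, adjusted p = 0.00566) and Psat1 (log2 fold change 0.76, adjusted p = 0.0313). Immediate early genes, which stress and dissociation can induce, rose in 7 of 10, led by Fosb (log2 fold change 3.39, adjusted p = 0.00224), and all 6 cycling markers rose. Their part in the changes of the 33 genes was not tested.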

How the data were processed

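The values deposited by the authors are expected counts, that is, reads estimated for each gene in each cell, which need not be whole (10.6% of values above 0 were not) and are not normalised. They stand in 2 files that split the cells by number. The submitters' processing notes name STAR 2.5.3a, RSEM 1.3.0 and the builds mm10 and GRCm38, without their role or order. Every per-sample column was used.

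After rounding, cells with under 50000 reads on genes, under 1500 genes with a read or over 20% mitochondrial reads were removed (57 of 768), which left 182, 228 and 301 cells of Days 1, 3 and 7. Counts were summed per culture and fitted with edgeR 4.0.16 in R 4.3.3 (TMM, filterByExpr, quasi-likelihood test, 1 fit over 11 cultures with day as the only term). Cycling and other cells of a culture (312 and 208 cells of Days 3 and 7, at least 5 per class and culture) were summed separately and fitted with culture as a block. The script was tested on simulated counts. CPM is relative to all RNA of a culture, so a level per cell was not measured. Shares of cells with a read (695 cells thinned to 200000 reads), isoenzyme shares and correlations carry no test. Near-identical copies were found with blastn 2.17.0 in GENCODE M21 transcripts (at least 90% identity over at least 50% of the copy and 200 bases). Coordinates are GENCODE M21 on GRCm38, and promoter sequences are from RefSeq (GRCm38.p6), which held 31 of the 33 symbols.

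Cells of 1 culture are not replicates, so n is the number of cultures. Per-culture values are given for members called in any comparison, and also for Slc16a3, Pfkp, Eno1, Ldha and Car9, chosen after their values were seen, and other members by mean, range and count. From each further list, up to 3 genes with the smallest adjusted p for Day 7 against Day 1 could be named. The 33 members, the further lists, the markers of 10 cell types (epithelium, GER with tectorial membrane, supporting cells, hair cells, mesenchyme, endothelium, immune cells, glia, neurons and erythroid cells) and the tests were chosen with earlier results of these data known. Alternatives were DESeq2 1.42.0, limma 3.58.1, other scalings, filters and cell sets, each file alone, each culture left out and, added after the data were seen, the reads of copies added. ERCC spike-in scaling was not run, since 709 of 711 retained cells had no ERCC read. Some genes of the further lists are not reported here.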

Additional observations from a re-analysis of the deposited data

Results flagged for a closer look

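In 4 of the 33 genes, 1 culture of Day 7 lay far from the other 4 in CPM (Dixon's test, which flags about 1 in 20 groups by chance). Car9, the surface carbonic anhydrase, was at 11.96 CPM in culture 1 and at 0.0668 to 1.68 CPM in the others. Vegfa, the vascular growth factor, was also high in culture 1, at 1.642 CPM beside 0.33 to 0.708 CPM. Egln3, a HIF prolyl hydroxylase, was at 6.553 CPM in culture 4 beside 3.19 to 4.1 CPM. Pgam1, phosphoglycerate mutase, was low in culture 4, at 454.2 CPM beside 521.6 to 543.7 CPM.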

How the results depend on the processing

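The count of 33 genes called on Day 7 against Day 1 was 3. It was 8 with DESeq2 (Aldoa, Eno1, Ldhb and Pfkp among them, with Slc16a3), 0 with cycling cells left out, 0 in the first file alone and 0 in the second, and 0 to 5 with 1 culture left out (0 without Day 1 culture 2, 5 without Day 7 culture 5). All genes called fell along with it in the smaller sets, from 7.13% of those tested to 1.25% with cycling cells left out, 0.0794% and 0.656% in the files, and 2.37% to 3.35% without 1 culture of Day 1, and rose to 13.2% with DESeq2. With no filter on low counts 4.08% were called, without Day 7 culture 3 4.7% and without Day 7 culture 5 7.98%. Slc2a1, P4ha1 and Pgk1 kept their direction in all 25 alternatives. On Day 3 against Day 1 the count of 0 became 1 with DESeq2, and on Day 7 against Day 3 the count of 0 became 2 with DESeq2 and 1 (Pfkp) both with no filter on low counts and with the file as a term. All genes called there were 1.53% and 3.66% with DESeq2, 0% and 0% in the first file and 0.0945% and 0.105% in the second, and 0.435% with limma on Day 3 against Day 1. Without 1 culture they ranged from 0% to 0.0288% on Day 3 against Day 1 and from 0.189% (without Day 3 culture 2) to 0.988% on Day 7 against Day 3. In the comparison of cycling cells the count of 5 was 0 in Day 3 cultures only (4.12% of all genes) and 3 in Day 7 cultures only (3.58%). It was 3 with no filter on low counts (4.86%), 2 with no replicate block (6.44%) and 3 to 4 with 1 culture left out (8.18% to 9.84%). DESeq2 called 7 there and 19.2% of all genes. Some of these sets hold fewer samples or cells, and what caused the changes in count was not tested.

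Replicate numbers recur across days. The deviations of same-numbered cultures from their day means had 9 correlations from -0.0099 to 0.0616. Differently numbered cultures were not compared, so these values do not settle whether the numbers link cultures. With the number as a replicate block the counts were 0 of 33 on Day 3 against Day 1, 4 on Day 7 against Day 1 (Eno1, Ldha, Ldhb and Pgk1, of which only Pgk1 is among the 3; the adjusted p was 0.0673 for Slc2a1 and 0.052 for P4ha1) and 0 on Day 7 against Day 3, with 0.126%, 5.91% and 0.55% of all genes called.

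None of the 3 genes called on Day 7 against Day 1 and the 5 called in cycling cells changed sign in an alternative that was run. The further lists were not run under the alternatives. For Day 7 against Day 1, each of the 33 genes was paired with each of 25 alternatives. A call was lost in 26 of these pairs, all of them of the 3 genes called, and gained in 20. Levels per length and shares of cells moved with the length or depth used in 50 and 33 cases. Low transcripts such as Car9, Adm and Slc2a3 were read in few cells, which limits what their days can show.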
